A study of Mus musculus with 6 samples.

Results

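The enzymes described here are the cytochrome P450s of families 2, 3 and 4 and the conjugating transferases of mouse adipose tissue: glutathione S-transferases (Gst), microsomal glutathione S-transferases (Mgst), UDP-glucuronosyltransferases (Ugt) and sulfotransferases (Sult). Membership was set by gene symbol, in a choice made with earlier results of these data known. The expression table holds 114 of them among 19928 genes, and 38 (33.3%) reached a mean of 1 FPKM over the 6 libraries (fragments per kilobase of transcript, scaled to library size), against 63.3% of all genes. These 38 are called expressed below.

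The study measured poly(A) RNA of adipose tissue of KM mice, an outbred stock, by RNA-seq, and its title concerns an anti-obesity effect in mice on a high-fat diet. In 3 samples the mice had been given radix Angelica sinensis, a plant root of Chinese medicine abbreviated RAS, and the labelled dose was 10.00 g/kg body weight. The other 3 samples were from a control group, for which the diet label reads control. Whether the controls also received the high-fat diet is not stated in the labels. No source used here gives the depot, the sex or age of the mice, or whether a sample is 1 animal or a pool. The p-values therefore measure the spread between these samples, which may be technical in part.

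Animals clear foreign compounds in steps. P450s add or expose a reactive group with electrons passed on by P450 reductase, and transferases then attach glutathione, glucuronic acid or sulfate so that transporters can export the product. Many of these enzymes also act on the body's own fatty acids, lipid peroxides, steroids and retinoids. Most are known from liver, while some, such as the ethanol- and acetone-oxidizing Cyp2e1 and the microsomal transferase Mgst1, are also known from fat cells.

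Depth was even, at an estimated 14.4 to 15.7 M reads assigned to genes per library, inferred from a count signal scaled per sample. All 10 adipocyte markers examined were expressed, with a summed level of 52616, 46736 and 66078 FPKM in RAS 1 to 3 and 43070, 36279 and 37065 FPKM in control 1 to 3. Markers of other cells set single libraries apart. The summed level of 15 hepatocyte markers was 14.5 to 20.2 FPKM in the RAS libraries, against 35.1, 12.1 and 214.9 FPKM in control 1 to 3. Brown fat markers summed to 139, 203 and 967 FPKM in RAS 1 to 3 and to 313, 116 and 53.2 FPKM in control 1 to 3. Mesothelium markers summed to 99.1 to 158 FPKM in the RAS libraries and to 31.0, 197 and 249 FPKM in control 1 to 3. In bulk tissue, fewer cells of a type and less RNA per cell cannot be told apart.

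The expressed enzymes were few and steeply graded. Of the 38, 8 had a mean of at least 100 FPKM, 17 lay between 10 and 100 and 13 between 1 and 10. Mgst1 alone gave 27.9% of the members' summed mean FPKM and Cyp2e1 21.4%, and the 5 highest, which also include Gstz1, Mgst3 and Gstm1, gave 73.6%. The summed level of all members was 4204, 5018 and 5287 FPKM in RAS 1 to 3, against 3849, 3593 and 3732 FPKM in control 1 to 3, so the groups did not overlap. This sum is weighted to Mgst1 and Cyp2e1, which gave 49.2% of the summed mean and were each higher in every RAS library. The summed level of the Gst genes overlapped between the groups, and that of the Ugt1a genes was lower in every RAS library. As a share of all FPKM the members' sum was 0.888, 1.12 and 0.970% in the RAS libraries and 0.800, 0.872 and 0.819% in the control libraries. The adipocyte marker sum stood higher in the same RAS libraries, and its part in this was not tested. The largest value in that sum was Fabp4, at a mean of 37958 FPKM with RAS and 23034 FPKM in controls. By log2 difference, 7 of the 10 adipocyte markers had the higher mean with RAS and 3 the lower, with a median of 0.11.

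**Figure D1:**
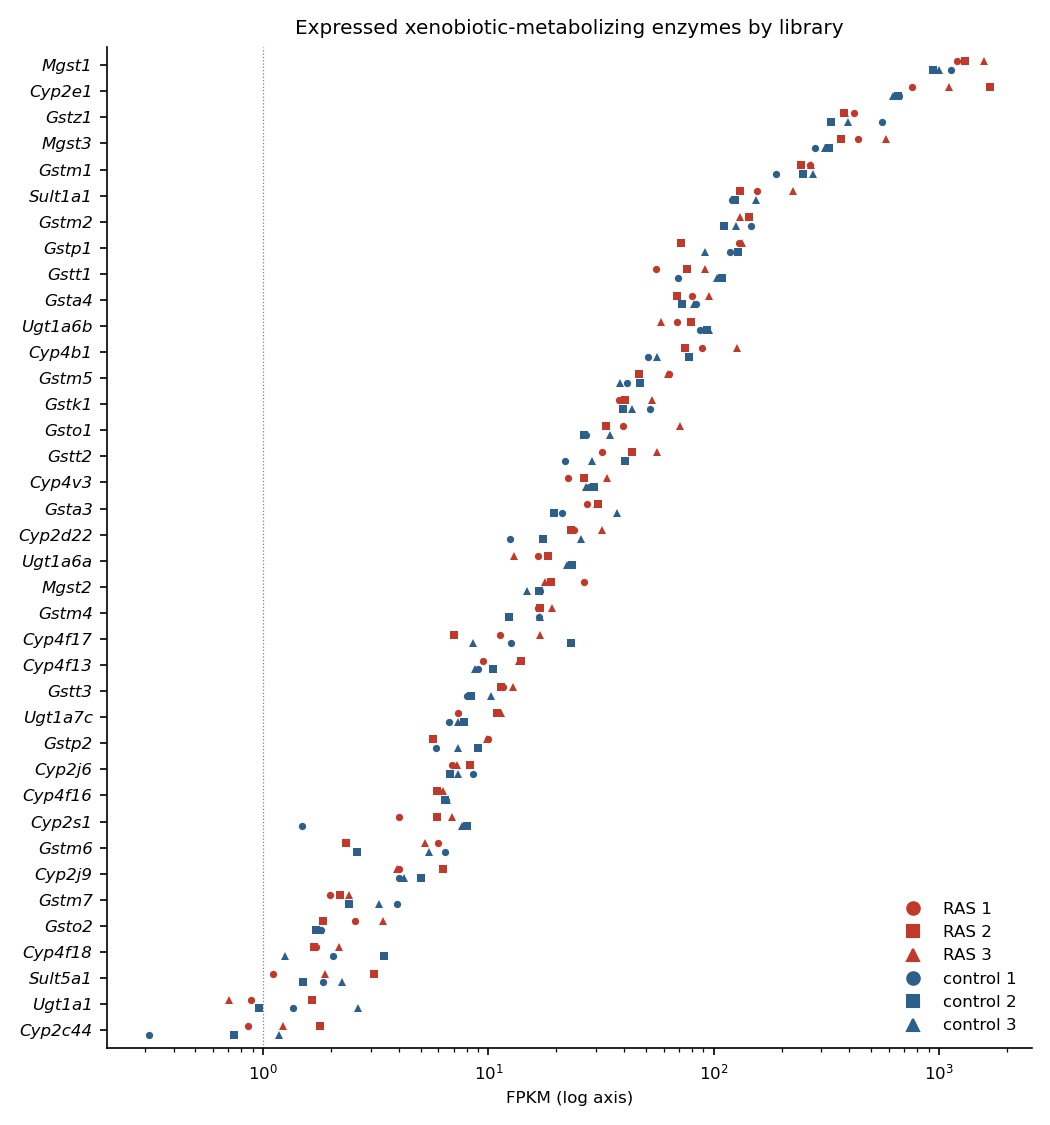
FPKM (log axis) of the 38 expressed enzymes, in order of mean level; red symbols are RAS libraries and blue symbols control libraries, with 1 symbol shape per replicate number, and the dotted line marks 1 FPKM. Mgst1 and Cyp2e1 lead at 1193 and 915 FPKM on average, and in most lines the red and blue symbols mix.

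Families differed in how many members fat expressed. The transferases of glutathione were nearly all present: 17 of 21 Gst genes and 3 of 3 Mgst genes. Of 62 P450s, 12 were expressed, 6 of 39 in family 2, 0 of 8 in family 3 and 6 of 15 in family 4. Of 16 glucuronosyltransferases, 4 of 8 Ugt1 and 0 of 8 Ugt2 genes were expressed, and of 12 sulfotransferases only Sult1a1 and Sult5a1. By level, the Mgst family made up 37.3% of the members' summed mean FPKM, P450 family 2 made up 22.5%, the mu class (Gstm) 10.7% and Gstz1 9.60%. The cutoff of 1 FPKM fell between Sult5a1 (1.95 FPKM), Ugt1a1 (1.36) and Cyp2c44 (1.02) on the upper side and Cyp2u1 (0.995), Ugt1a2 (0.776) and Ugt1a9 (0.738) on the lower. With the demand of 1 FPKM in every library 36 members remained, and with 1 FPKM in any library there were 58.

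RAS and control libraries were compared gene by gene with limma on log2(FPKM + 1) over 12606 genes with a mean of at least 1 FPKM, and differences are RAS minus control. No enzyme passed: 0 of 38 had an adjusted p under 0.05 (Benjamini-Hochberg, smallest 0.332), as had 0 of all 12606 genes (0%, smallest 0.138). At an unadjusted p under 0.05 there were 8 members (21.1%), against 10.3% of all genes tested. Of the 8, Cyp2e1, Mgst3, Cyp4b1, Gstm5 and Gstt3 had the higher mean with RAS (3.86% of all genes), and Ugt1a6a, Ugt1a6b and Gstm7 the lower (6.41% of all genes). This split of 5 to 3 depended on the scaling and became 9 to 2 after median-ratio size factors and 8 to 2 after quantile normalization. With no minimum FPKM, when all 114 members entered, 9 (7.89%) were under 0.05, against 8.49% of all genes. The count of 8 depended on which library was left out. It was 3 without control 1 (7.89%, under the 10.8% of all genes in that setting). It was 4 without RAS 3 (10.5%, all genes 9.55%) and 4 without control 3 (10.5%, all genes 7.93%). It stayed 8 without RAS 2 (21.1%, all genes 8.58%) and was 6 without RAS 1 (15.8%, all genes 8.68%). Without control 2 the share was 18.4%, against 7.83% of all genes. Groups were fully apart in FPKM for 9 members (23.7%; 17.9% of all genes). RAS lay above control for Mgst1, Mgst2, Mgst3, Cyp2e1, Gstt3 and Gsto2 (background 5.42%), and below it for Ugt1a6a, Ugt1a6b and Cyp4f16 (background 12.5%). This count of 9 was 17 without RAS 2 (44.7%, all genes 27.3%) and 15 without control 2 (39.5%, all genes 26.6%). It was 14 without control 3 (36.8%, all genes 26.7%) and 13 without RAS 1 (34.2%, all genes 27.4%). The shares were close to those of all genes without control 1 (31.6%, all genes 30.7%) and without RAS 3 (28.9%, all genes 28.6%).

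By the sign of the log2 difference, 24 of 38 members (63.2%) had the higher mean with RAS and 14 the lower, where 43.0% of all genes had the higher mean. The members' median was 0.16, with a range of -0.51 to 0.79, against -0.04 over all genes tested. The median over members followed the set of genes used: with no minimum level, all 114 members entered and it was -0.06. Among the 38, 15 had their highest value in RAS 3 (39.5%, against 23.8% of all genes tested), the library with the most brown fat marker RNA, and the part of that RNA in the result was not tested. Without RAS 3 the median was 0.12, and 28.9% of members had ranges apart, as had 28.6% of all genes.

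**Figure D2:**
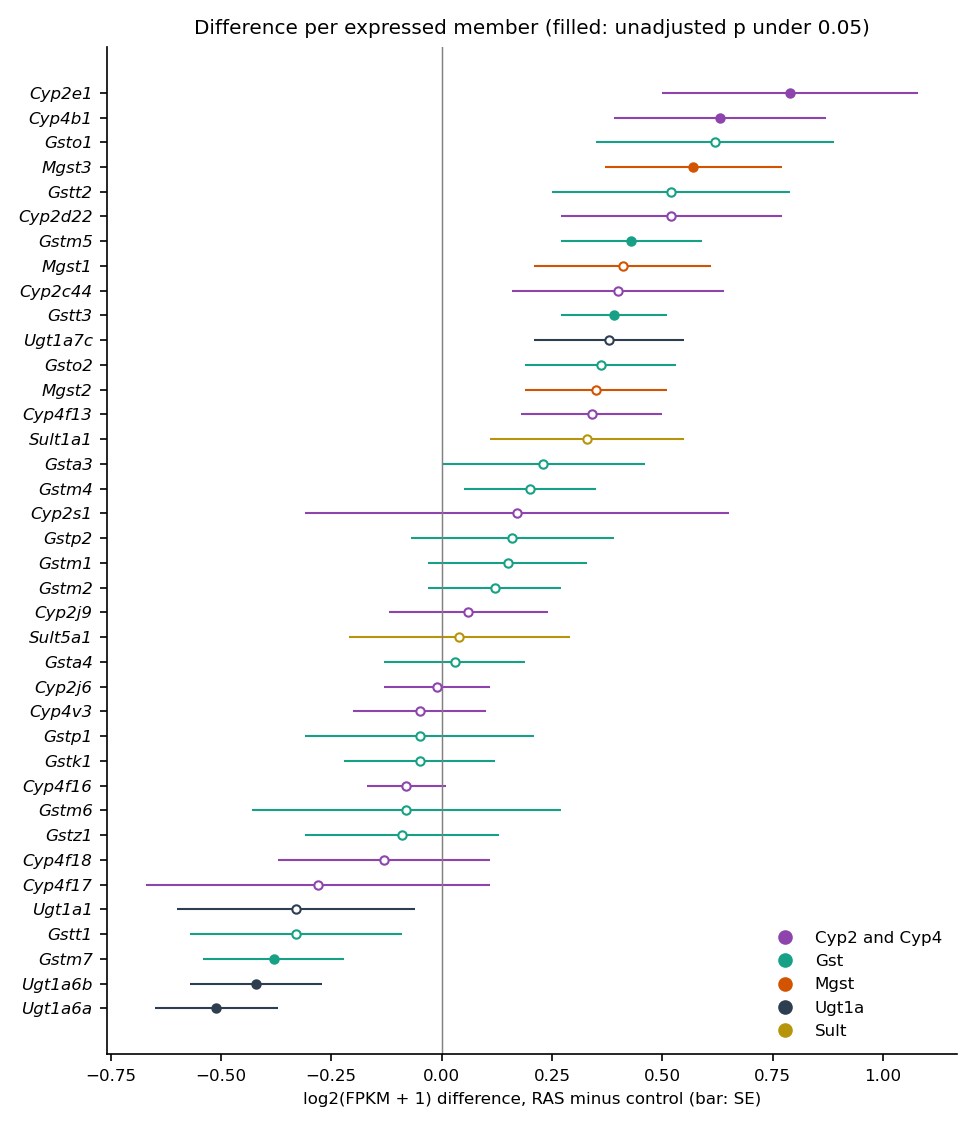
Log2(FPKM + 1) difference, RAS minus control, of each expressed enzyme (point) with its standard error (bar), coloured by family; filled points have an unadjusted p under 0.05 and none passed after adjustment. Cyp2e1 is at the top with 0.79 and Ugt1a6a at the bottom with -0.51, and all 3 Mgst genes lie right of 0.

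Upstream sequence is shown for 4 enzymes that lead the text below on the higher side, the 3 most abundant of those with a higher mean and the mu-class gene Gstm5. FPKM is a value per gene and is not assigned to a start site. RefSeq promoter windows (GRCm38.p6) were matched for 32 of the 38 by gene number, and the 250 bases before the start are printed, 5′ to 3′ on the gene's strand. Capitals mark the core of the antioxidant response element (TGAC, 3 free bases, GC), at which Nrf2 binds, or of the xenobiotic response element (GCGTG), at which the aryl hydrocarbon receptor binds, read on both strands. Mgst1 is at chr6:138140277-138140526 (+ strand, the first of its start sites listed), Cyp2e1 at chr7:140763569-140763818 (+), Mgst3 at chr1:167393842-167394091 (-) and Gstm5 at chr3:107895604-107895853 (+).
Mgst1: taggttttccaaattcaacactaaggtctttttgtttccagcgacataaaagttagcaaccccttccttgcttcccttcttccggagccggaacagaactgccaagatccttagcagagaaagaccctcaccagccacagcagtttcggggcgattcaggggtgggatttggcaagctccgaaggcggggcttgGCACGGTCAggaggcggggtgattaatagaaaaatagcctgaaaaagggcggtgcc
Cyp2e1: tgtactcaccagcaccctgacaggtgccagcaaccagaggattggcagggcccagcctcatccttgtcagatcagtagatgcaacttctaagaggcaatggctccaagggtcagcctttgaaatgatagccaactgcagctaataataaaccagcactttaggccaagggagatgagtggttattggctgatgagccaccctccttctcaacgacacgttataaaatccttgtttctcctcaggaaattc
Mgst3: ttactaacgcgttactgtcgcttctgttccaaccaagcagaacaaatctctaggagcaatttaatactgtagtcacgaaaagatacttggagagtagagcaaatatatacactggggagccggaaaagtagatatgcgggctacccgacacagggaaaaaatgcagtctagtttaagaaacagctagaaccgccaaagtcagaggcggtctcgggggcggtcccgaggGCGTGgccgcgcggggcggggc
Gstm5: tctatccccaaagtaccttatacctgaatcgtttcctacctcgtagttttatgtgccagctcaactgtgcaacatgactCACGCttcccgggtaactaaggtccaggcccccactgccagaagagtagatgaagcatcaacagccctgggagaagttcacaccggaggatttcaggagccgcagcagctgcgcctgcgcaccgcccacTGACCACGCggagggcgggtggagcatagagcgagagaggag
The Mgst1 window held an antioxidant core beginning at -56 on the opposite strand, while its other listed window held none, the Mgst3 window a xenobiotic core at -22, and the Gstm5 window an antioxidant core at -42 that overlaps 1 of its 2 xenobiotic cores. The Cyp2e1 window held neither string. Over the full windows, which run 50 bases past the start, the antioxidant core stood in 14.6% of 41 windows of expressed members and in 12.4% of 32851 windows of all genes. The xenobiotic core stood in 19.5% of the members' windows and in 32.4% of the windows of all genes. These are letter matches and not measured binding sites.

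Among the P450s, Cyp2e1 (NCBI gene 13106; chromosome 7, 140763832 to 140774981), which oxidizes ethanol, acetone and fatty acids, was by far the most abundant. It stood at 755, 1683 and 1105 FPKM in RAS 1 to 3, against 664, 658 and 625 FPKM in control 1 to 3. The control libraries were close together, and every RAS library was above them, RAS 1 by the least and RAS 2 by the most. The means were 1181 ± 469 FPKM with RAS and 649 ± 20.7 FPKM in controls (SD, n = 3 each, as below), a ratio of 1.82. In limma the log2 difference was 0.79 ± 0.29 (SE; unadjusted p = 0.0310, adjusted p = 0.432), and it was 0.49 without RAS 2.

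Cyp4b1, a P450 of family 4 that hydroxylates fatty acids and activates some plant toxins, was the next highest P450. Its level was 89.0, 74.3 and 127 FPKM in RAS 1 to 3 and 50.9, 77.3 and 56.2 FPKM in control 1 to 3. RAS 2 and control 2 overlapped, while the other libraries kept the order of the groups. The log2 difference was 0.63 ± 0.24 (SE; unadjusted p = 0.0325, limma adjusted p = 0.441). Cyp2d22, a mouse member of the Cyp2d drug-oxidizing subfamily, averaged 26.4 ± 4.86 FPKM with RAS and 18.6 ± 6.72 FPKM in controls, with overlapping libraries.

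For the remaining expressed P450s the groups overlapped, other than for Cyp4f16. Cyp4v3, related to a fatty acid hydroxylase of the human eye, averaged 27.5 ± 5.53 FPKM with RAS and 28.1 ± 1.05 FPKM in controls. The Cyp4f genes, whose relatives hydroxylate leukotrienes and long fatty acids, had log2 differences of 0.34 (Cyp4f13), -0.08 (Cyp4f16), -0.13 (Cyp4f18) and -0.28 (Cyp4f17). Cyp4f16 lay at 5.91 to 6.28 FPKM with RAS and 6.39 to 6.55 FPKM in controls, so its ranges were apart although the means differed by a ratio of only 0.935. The arachidonic acid epoxygenases Cyp2j6 and Cyp2j9 differed by -0.01 and 0.06. Cyp2c44, an epoxygenase as well, stood at 0.857, 1.78 and 1.23 FPKM in RAS 1 to 3 and at 0.312, 0.740 and 1.18 FPKM in control 1 to 3, with overlap. Its control mean of 0.745 FPKM was below the cutoff, so it was tested only because of its RAS level. Cyp2s1, a P450 of tissues outside the liver, was at 4.01 to 6.92 FPKM with RAS and at 1.48, 8.02 and 7.61 FPKM in control 1 to 3. Its low library, control 1, was also the lowest in the mesothelium marker sum, whose part in this was not tested.

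All 3 microsomal glutathione transferases, membrane enzymes that detoxify lipid peroxides and, for some members, make leukotriene C, had all RAS values above all control values. None passed the adjusted test. Mgst1 (NCBI gene 56615; chromosome 6, 138140537 to 138156752), of the endoplasmic reticulum and outer mitochondrial membrane, was the most abundant enzyme of the set. Mgst1 stood at 1204, 1302 and 1591 FPKM in RAS 1 to 3, against 1127, 938 and 996 FPKM in control 1 to 3. The gap between RAS 1 and control 1 was small beside the spread within each group. Means were 1366 ± 201 FPKM with RAS and 1020 ± 97.1 FPKM in controls, and the log2 difference was 0.41 ± 0.20 (SE; limma adjusted p = 0.531).

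Mgst3, at 438, 369 and 579 FPKM in RAS 1 to 3 and 283, 325 and 310 FPKM in control 1 to 3, differed by 0.57 ± 0.20 (SE; unadjusted p = 0.0243, limma adjusted p = 0.424). RAS 3 was its highest library, and the control libraries were close together. Mgst2, which can make leukotriene C, was at 26.5, 19.0 and 17.8 FPKM in RAS 1 to 3 and 16.9, 16.8 and 14.8 FPKM in control 1 to 3. Its difference of 0.35 ± 0.16 (SE; limma adjusted p = 0.517) was carried most by RAS 1 and was 0.18 without it. The Mgst2 signal was thin, with 94.1 to 167 scaled reads per library. Over the family, the summed level was 1669, 1690 and 2187 FPKM with RAS and 1427, 1279 and 1321 FPKM in controls. No 50-base stretch of an Mgst transcript occurred unchanged in a transcript of another gene in the GENCODE M21 annotation. Near-identical copies, the opposite strand and unannotated copies were not searched, so shared reads are not excluded.

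The Gst transferases did not share a direction: 11 of the 17 expressed Gst genes had the higher mean with RAS and 6 the lower. Their summed level was 1343, 1220 and 1429 FPKM in RAS 1 to 3 and 1372, 1210 and 1299 FPKM in control 1 to 3, overlapping throughout. Gstz1, which isomerizes maleylacetoacetate in tyrosine breakdown, led with 418, 380 and 381 FPKM with RAS and 560, 331 and 394 FPKM in controls. Its locus in the table is merged with that of Pomt2. Gstm1 averaged 261 ± 14.3 FPKM with RAS and 238 ± 44.5 FPKM in controls, and Gstm2 139 ± 7.04 FPKM with RAS and 128 ± 17.8 FPKM in controls. The pi-class enzyme Gstp1 averaged 112 ± 34.4 FPKM with RAS and 112 ± 18.8 FPKM in controls, and 51.0% of its 50-base transcript stretches recur in Gstp2, so reads of the pair may be divided arbitrarily.

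Mu-class genes, which conjugate aromatic and epoxide substrates, lie side by side on chromosome 3, and their differences had both signs. Gstm5 stood at 63.4, 46.4 and 62.7 FPKM in RAS 1 to 3 and 41.0, 46.9 and 38.2 FPKM in control 1 to 3, where RAS 2 fell within the control range. Its difference was 0.43 ± 0.16 (SE; unadjusted p = 0.0302, limma adjusted p = 0.432), and its locus in the table is shared with the gene models 4933431E20Rik and Gm10667. Gstm7 was at 1.97, 2.20 and 2.40 FPKM with RAS and 3.91, 2.40 and 3.27 FPKM in controls, a difference of -0.38 ± 0.16 (SE; unadjusted p = 0.0487, limma adjusted p = 0.483) on 38.9 to 75.4 scaled reads per library. Gstm4 differed by 0.20 and Gstm6 by -0.08.

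In the theta class, Gstt3 was higher in every RAS library, and the neighbouring Gstt1 had the lower mean. Gstt3 stood at 11.6, 11.4 and 12.9 FPKM in RAS 1 to 3 and at 8.07, 8.36 and 10.3 FPKM in control 1 to 3, a difference of 0.39 ± 0.12 (SE; unadjusted p = 0.0135, limma adjusted p = 0.373). Control 3 came closest to the RAS libraries. Gstt1 averaged 74.5 ± 18.3 FPKM with RAS and 93.9 ± 21.2 FPKM in controls (log2 -0.33, limma adjusted p = 0.667). That difference was -0.14 without RAS 1 and -0.53 without control 1. Gstt2 averaged 43.7 ± 12 FPKM with RAS and 30.3 ± 9.39 FPKM in controls (log2 0.52). Of Gstt3 transcript stretches, 20.6% recur elsewhere, mostly in the gene model Gm20441.

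In the omega class both genes had the higher mean with RAS, and the alpha-class Gsta4 and the kappa-class Gstk1 were close to even. Gsto1, an omega-class enzyme that reduces dehydroascorbate, was at 39.7, 33.3 and 70.6 FPKM in RAS 1 to 3 and 27.0, 26.6 and 34.7 FPKM in control 1 to 3. RAS 3 was its highest library: the log2 difference was 0.62 ± 0.27 (SE; limma adjusted p = 0.493) with all libraries and 0.31 without RAS 3. Gsto2, from the same stretch of chromosome 19, was at 1.85 to 3.41 FPKM with RAS and 1.71 to 1.81 FPKM in controls, with ranges apart. Gsta4, which conjugates the lipid peroxidation product hydroxynonenal and is known from fat cells, averaged 81.4 ± 13.6 FPKM with RAS and 79.2 ± 5.84 FPKM in controls. Gstk1, which in mouse fat is also known for assisting adiponectin assembly, averaged 43.8 ± 8.19 FPKM with RAS and 45.1 ± 6.47 FPKM in controls. For Gsta4 and Gstk1, the sign of the difference changed with the settings used.

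The glucuronosyltransferases expressed in fat all come from the Ugt1a locus, which the table gives as a single interval (chromosome 1, 88055411 to 88220002) for all 8 Ugt1a members. There, alternative starting exons, each with its own promoter, are joined to a common set of later exons. Upstream sequence is shown for a pair of its genes, Ugt1a6a with the lower and Ugt1a7c with the higher mean with RAS. The groups overlapped for Ugt1a7c. Most of the Ugt1a6a transcript sequence recurs in Ugt1a7c, and FPKM is a value per gene. The activity of the separate start sites is therefore not resolved. The windows (RefSeq, GRCm38.p6, + strand, 250 bases before the start) are Ugt1a6a at chr1:88134559-88134808 and Ugt1a7c at chr1:88094751-88095000. Neither window held the antioxidant or the xenobiotic core, so no base is in capitals.
Ugt1a6a: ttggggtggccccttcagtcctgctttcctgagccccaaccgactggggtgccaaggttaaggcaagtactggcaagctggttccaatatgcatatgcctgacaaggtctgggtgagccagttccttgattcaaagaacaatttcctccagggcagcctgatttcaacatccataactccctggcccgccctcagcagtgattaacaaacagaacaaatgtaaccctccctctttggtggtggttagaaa
Ugt1a7c: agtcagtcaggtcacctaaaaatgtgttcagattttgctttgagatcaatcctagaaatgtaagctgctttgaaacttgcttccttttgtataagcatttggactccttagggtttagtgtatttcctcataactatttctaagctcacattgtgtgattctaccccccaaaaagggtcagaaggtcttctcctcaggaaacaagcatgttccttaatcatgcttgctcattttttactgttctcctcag
The summed level of the locus was 95.9, 112 and 84.0 FPKM in RAS 1 to 3, against 120.4, 128.5 and 130.4 FPKM in control 1 to 3. Every RAS library was below every control library. The means were 97.3 ± 14.0 FPKM with RAS and 126.4 ± 5.31 FPKM in controls, and Ugt1a6a and Ugt1a6b, enzymes of planar phenols, made up 89.1% of the sum.

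Ugt1a6a (NCBI gene 94284) had the smallest p of all 38 enzymes. Its level was 16.6, 18.4 and 13.0 FPKM in RAS 1 to 3 and 23.3, 23.4 and 22.2 FPKM in control 1 to 3. The difference was -0.51 ± 0.14 (SE; unadjusted p = 0.00786, limma adjusted p = 0.332). Ugt1a6b (NCBI gene 394435) was at 68.9, 79.0 and 58.1 FPKM in RAS 1 to 3 and 86.8, 93.3 and 95.2 FPKM in control 1 to 3 (log2 -0.42 ± 0.15 SE, unadjusted p = 0.0228, limma adjusted p = 0.416). In both genes the control libraries were close together and RAS 3 was the lowest library. Both kept a lower mean with RAS under each of 15 other settings, between -0.61 and -0.38 for Ugt1a6a and between -0.53 and -0.31 for Ugt1a6b.

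The 2 genes are not independent evidence. Of the 50-base stretches of their transcripts, 96.0% for Ugt1a6a and 79.8% for Ugt1a6b recur in another gene, mainly each other and Ugt1a7c, so their reads could be divided between them. Added together they stood at 84.6 ± 13.2 FPKM with RAS and 114.8 ± 4.02 FPKM in controls, a ratio of 0.738. Ugt1a7c, also an enzyme of phenols, had the higher mean with RAS, at 7.35, 10.9 and 11.4 FPKM in RAS 1 to 3 and 6.68, 7.78 and 7.34 FPKM in control 1 to 3 (log2 0.38 ± 0.17 SE, limma adjusted p = 0.493). RAS 1 fell within the control range. Ugt1a1, the bilirubin enzyme, was at 0.885, 1.64 and 0.704 FPKM with RAS and 1.35, 0.957 and 2.64 FPKM in controls. Below the cutoff, Ugt1a2 was at 0.478 to 0.701 FPKM with RAS and 0.886 to 1.01 FPKM in controls. Ugt1a9 was at 0.0910 to 0.605 FPKM with RAS and 0.791 to 1.24 FPKM in controls, on 5.38 to 69.5 scaled reads per library. Both had ranges apart, while Ugt1a5, at 0.240 to 1.03 FPKM with RAS and 0.415 to 0.968 FPKM in controls, overlapped, as did Ugt1a10. Over all 114 members with no minimum FPKM, 11.4% had ranges apart, against 14.7% of all genes. These genes share the later exons of the locus, so they are not independent of Ugt1a6a and Ugt1a6b.

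**Figure D3:**
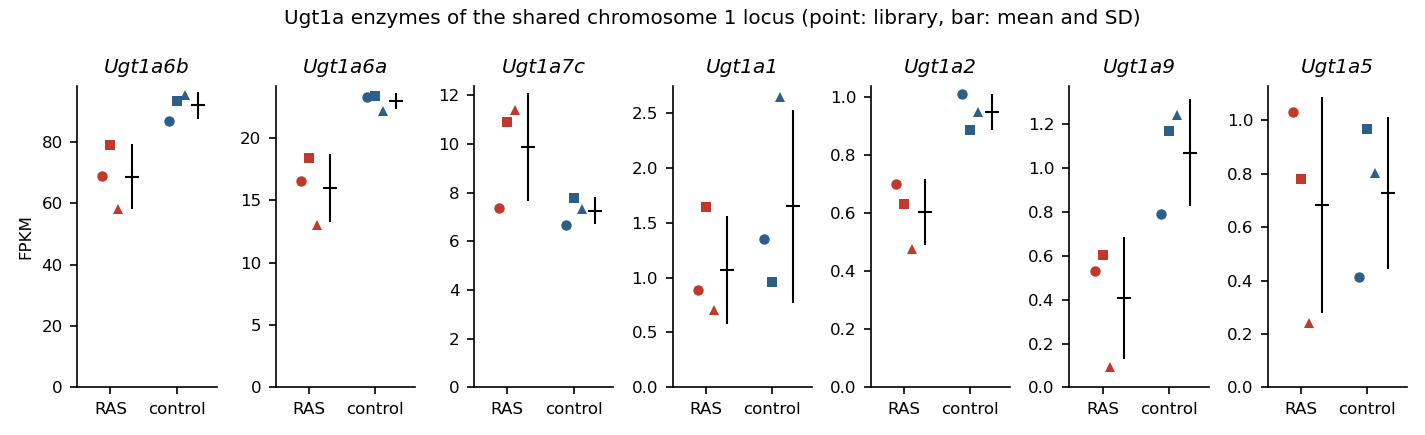
FPKM (linear axes starting at 0, 1 panel per gene) of 7 glucuronosyltransferases of the Ugt1a locus, RAS at the left (red) and control at the right (blue), with a point per library, shaped by replicate number, and the mean with its SD (bar). RAS libraries lie below control libraries for Ugt1a6b, Ugt1a6a, Ugt1a2 and Ugt1a9, and Ugt1a7c has the opposite order of means. The groups overlap for Ugt1a7c, Ugt1a1 and Ugt1a5, and the genes share later exons and are not independent.

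Sulfotransferases of fat came down to Sult1a1, which sulfates phenols. It was at 156, 131 and 224 FPKM in RAS 1 to 3 and 121, 124 and 153 FPKM in control 1 to 3, and RAS 2 fell within the control range. The log2 difference was 0.33 ± 0.22 (SE; limma adjusted p = 0.647), and it was 0.11 without RAS 3 and 0.50 without RAS 2. Sult5a1, the other expressed member, was at 1.11, 3.11 and 1.89 FPKM with RAS and 1.85, 1.5 and 2.24 FPKM in controls.

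Of the 76 members below the cutoff, most had their highest value in a single control library. Control 3 held the highest value of 52 of the 76 (68.4%), where it held the highest value of 19.3% of all 7322 genes below the cutoff. Their summed level was 6.49, 7.58 and 6.47 FPKM in RAS 1 to 3 and 9.06, 6.74 and 49.1 FPKM in control 1 to 3. A level of 1 FPKM was reached by 37, 38 and 38 members in RAS 1 to 3 and by 39, 37 and 55 members in control 1 to 3. In control 3 alone it was reached by 16: Cyp2a5, Cyp2a12, Cyp2c29, Cyp2c37, Cyp2c39, Cyp2c50, Cyp2c69, Cyp2c70, Cyp2d10, Cyp3a11, Cyp3a25, Cyp3a41a, Cyp3a41b, Cyp4a10, Sult2a2 and Sult3a1. Of the 76, 41 were listed at 0 in all RAS libraries, and 38 of these were above 0 in control 3.

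The same library carried the hepatocyte markers, 13 of 15 of which were highest there. Albumin (Alb) was at 6.51 to 10.5 FPKM with RAS and at 14.6, 8.08 and 88.4 FPKM in control 1 to 3, and Apoa2, Fgb, Ambp and Cps1 were listed at 0 in all RAS libraries. The drug-oxidizing Cyp3a subfamily (8 genes) summed to 0.0170, 0.0513 and 0.0823 FPKM in RAS 1 to 3 and to 0.552, 0.0810 and 12.2 FPKM in control 1 to 3. Cyp3a11, the main Cyp3a enzyme of mouse liver, was listed at 0 in the RAS libraries and at 0.181, 0 and 4.19 FPKM in control 1 to 3. These values, like the marker sum, were led by control 3, followed at a distance by control 1.

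The Cyp2a genes (4), enzymes of coumarin and nicotine, summed to 0 FPKM in each RAS library and to 0.212, 0 and 3.79 FPKM in control 1 to 3. The Cyp2c genes (13), which oxidize drugs and arachidonic acid, summed to 1.09 to 1.84 FPKM with RAS and to 0.705, 0.871 and 13.5 FPKM in control 1 to 3. That sum includes the expressed Cyp2c44, which made up most of it in the RAS libraries, at 0.857, 1.78 and 1.23 FPKM. Ugt2 genes (8), which glucuronidate steroids and bile acids, summed to 0 to 0.120 FPKM with RAS and to 0.144, 0.0176 and 2.81 FPKM in control 1 to 3. In each of these subfamilies control 3 was the highest library. Apart from Cyp2c44, a control mean of these enzymes is therefore mainly a value of a single library, and no difference between the groups is drawn from it. Cyp2e1, also a liver enzyme, had its lowest value in control 3. It stood at 664, 658 and 625 FPKM in control 1 to 3, far above these sums, and a liver part in it was not tested.

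**Figure D4:**
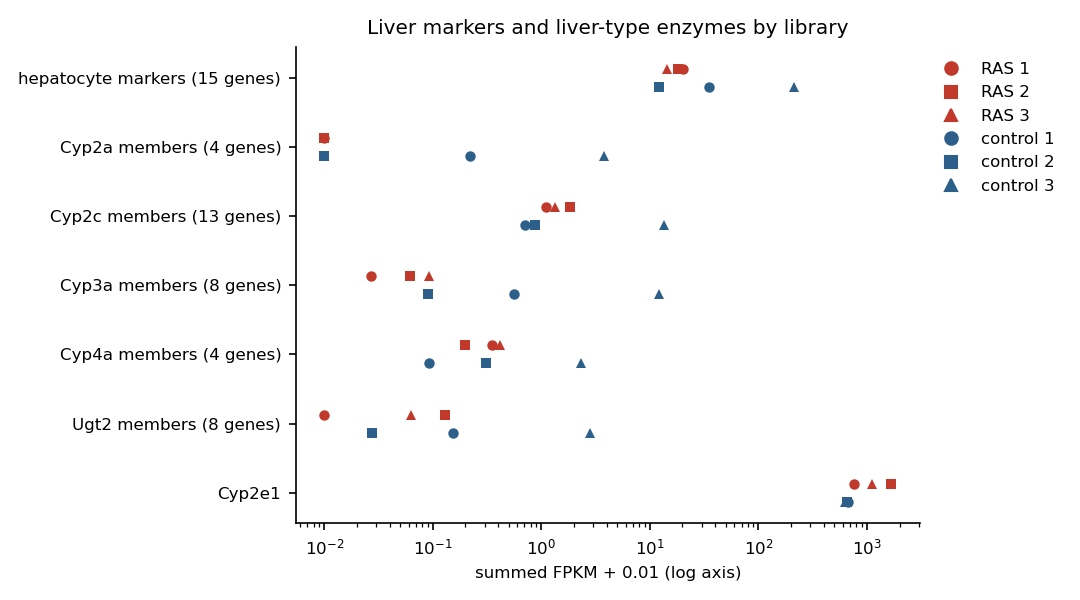
Summed FPKM plus 0.01 (log axis) of 15 hepatocyte markers, of 5 liver-type enzyme subfamilies and of Cyp2e1, for each RAS library (red, upper line) and control library (blue, lower line). Control 3 (blue triangle) lies far right of the other libraries for the markers (214.9 FPKM) and for the Cyp2a, Cyp2c, Cyp3a, Cyp4a and Ugt2 sums, and at the left end for Cyp2e1 (625 FPKM). The Cyp2c sum includes Cyp2c44, which was counted as expressed.

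Partners of these enzymes were read from lists chosen for their role in the pathway. None of the 6 lists had a gene past the adjusted threshold. Of 7 electron and heme partners of P450s, 6 had the higher mean with RAS, where 43.0% of all genes had, with a median log2 difference of 0.18. Por (NCBI gene 18984), the reductase that supplies electrons to every microsomal P450, was at 190, 180 and 181 FPKM in RAS 1 to 3 and 121, 135 and 123 FPKM in control 1 to 3. Both groups were tight and well apart, at 184 ± 5.48 FPKM with RAS and 126 ± 7.58 FPKM in controls. The log2 difference was 0.54 ± 0.13 (SE; unadjusted p = 0.00344, limma adjusted p = 0.278). Alas1, the first enzyme of heme synthesis, differed by 0.37, cytochrome b5 (Cyb5) by 0.28 and the heme-binding Pgrmc1 by 0.18.

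Of 13 regulators, 8 were expressed, 5 with the higher and 3 with the lower mean (median 0.07). Ppara, the fatty acid receptor that drives Cyp4a genes in liver, was at 2.80, 4.06 and 4.03 FPKM in RAS 1 to 3 and 2.28, 2.09 and 1.11 FPKM in control 1 to 3 (log2 0.73 ± 0.21 SE, unadjusted p = 0.00938, limma adjusted p = 0.347). The aryl hydrocarbon receptor Ahr differed by 0.31, its partner Arnt by 0.16 and Rxra by -0.17. The drug receptors of liver, Nr1i2 and Nr1i3, were listed at 0 in all libraries other than control 3, where they were at 0.0873 and 0.368 FPKM.

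Of 28 other phase I enzymes, 18 were expressed, 10 with the higher and 8 with the lower mean (median 0.16), and an unadjusted p under 0.05 was found for 4 on the higher side and 1 on the lower (all genes: 3.86% and 6.41%). The carbonyl reductases Cbr3 and Cbr1 differed by 0.54 and 0.48, the epoxide hydrolase Ephx1 by 0.61 and Cyp1b1, a P450 of steroids and aromatic hydrocarbons, by -0.46, with limma adjusted p values of 0.334 to 0.373. The remaining conjugation enzymes had 5 higher and 4 lower means among 9 (median 0.09). Inmt, an indolethylamine methyltransferase, was at 35.3, 33.8 and 29.7 FPKM in RAS 1 to 3 and 1.70, 14.4 and 14.2 FPKM in control 1 to 3, the largest difference of these lists at 1.98 (limma adjusted p = 0.386); control 1, also the lowest in mesothelium markers, was far below the other controls, and the part of those cells was not tested. The acetyltransferase Nat1 differed by 0.68 and Gstcd by -0.21.

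Genes that supply the cosubstrates and carry the products did not lean one way. Of 9 cosubstrate genes 3 had the higher and 6 the lower mean (median -0.08), led by Ugdh, which makes UDP-glucuronic acid, at -0.22, and the sulfate donor enzyme Papss1, at -0.17, followed by Ugp2 at -0.17 and Gclm at 0.12. Transporters divided 6 to 6 (median 0.00). The glutathione conjugate exporter Abcc1 was at 12.7, 13.7 and 8.87 FPKM in RAS 1 to 3 and 16.1, 16 and 15 FPKM in control 1 to 3 (log2 -0.41, unadjusted p = 0.0378, limma adjusted p = 0.455). Abcb1b differed by 0.42, Slco2b1 by 0.23 and Abcc4 by -0.23.

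**Figure D5:**
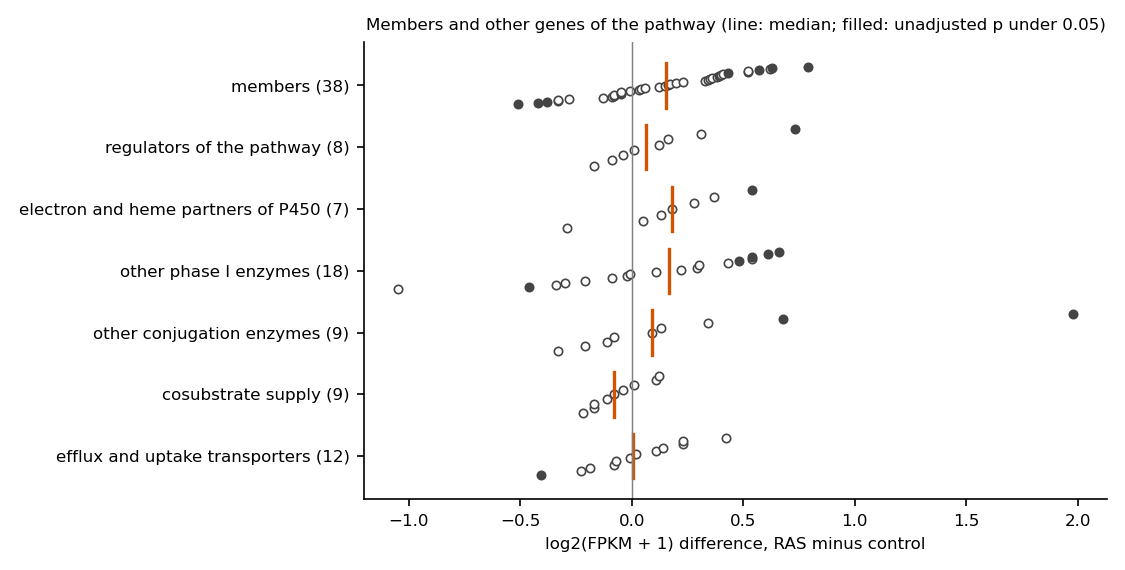
Log2(FPKM + 1) differences, RAS minus control, of the expressed enzymes (top line) and of 6 lists of partner genes, with 1 point per gene spread vertically for legibility; orange lines are medians and filled points have an unadjusted p under 0.05. The electron and heme partners have the highest median of the 6 lists (0.18) and the cosubstrate genes the lowest (-0.08), and no point passed after adjustment.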

How the data were processed

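Adipose RNA was sequenced by the authors from 3 RAS and 3 control samples as poly(A)-selected, randomly primed TruSeq libraries, per the labels' protocols. The FPKM values used here are those the authors deposited. The submitters' processing notes list TopHat2 2.0.9 and Cufflinks 2.1.1. For the build, the annotation and filters, nothing is given in the sources used here. No strand-specific step is named, so antisense and overlapping genes may be mixed. The authors also deposited a per-gene count signal already scaled per sample. Of its values, 97.9 to 98.9% were whole multiples (within 0.02) of 1 value per library. It was used for read support and as an alternative, and no count model was run. Columns bearing the group code given in the treatment protocol were taken as RAS and the other numbered set as control by elimination. Another 4 columns of values stayed unused.

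Genes averaging 1 FPKM or more were tested with limma 3.58.1 (lmFit, eBayes with a trend) in R 4.3.3 on log2(FPKM + 1), two-sided, with Benjamini-Hochberg adjustment over all 12606 genes and a threshold of 0.05. Differences on this scale understate changes of low genes. The model was tested on simulated data. Members named in full are the 12 most abundant, the 12 with the smallest p, the leader of each family and those next to the cutoff, with up to 4 genes per partner list, of which 1 is not reported here; others were named after their values were seen. The members and lists were chosen with earlier results of these data known. Loci, counted from 1, are the table's; 113 of 114 members were found in GENCODE M21 (GRCm38), all 113 overlapping it. Alternatives were a pseudocount of 0.1, no minimum or a minimum of 5 FPKM, quantile or median-ratio scaling, a robust variance model, sample weights, a replicate block, each library left out and, added after seeing the data, the scaled counts. Tables and figures were made with Python 3.11.15, pandas 2.3.3, numpy 2.4.6 and matplotlib 3.10.9.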

Additional observations from a re-analysis of the deposited data

How the results depend on the processing

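No member passed the adjusted threshold in any of the 15 alternatives, where the smallest adjusted p of a member ran from 0.178 (sample weights) to 0.542 (without control 2). With 1 library left out, members at an unadjusted p under 0.05 numbered 3 (without control 1) to 8 (without RAS 2). There were 6 without RAS 1, 4 without RAS 3 and 4 without control 3. Members with ranges apart numbered 11 (without RAS 3) to 17 (without RAS 2) then, since fewer libraries have to be separated. They numbered 15 without control 2, 14 without control 3 and 13 without RAS 1 (34.2%, all genes 27.4%). Without control 1, 31.6% of members had ranges apart, against 30.7% of all genes. With no minimum FPKM they numbered 13 of 114 (11.4%, all genes 14.7%). In that setting 9 of 114 had an unadjusted p under 0.05 (7.89%, all genes 8.49%). The median difference was -0.06 with no minimum FPKM, when all 114 members entered. At 1 FPKM in any library 58 members counted as expressed, 46 at a mean of 0.5 FPKM and 30 at a mean of 5. Of 24 named members, 18 kept their sign throughout. The sign turned, with a range over left-out libraries, for Gsta4 (-0.09 to 0.15; -0.05 quantile, -0.03 weights), Gstz1 (-0.26 to 0.12; 0.03 weights), Sult5a1 (-0.20 to 0.28; -0.03 weights), Gstk1 (-0.19 to 0.06), Gstp1 (-0.20 to 0.24) and Gstm1 (-0.01 to 0.27); the cause was not tested. The scaled counts, added after seeing the data, gave 10 members at an unadjusted p under 0.05 (26.3%, all genes 10.3%), 8 higher and 2 lower. Median-ratio factors gave 11 (28.9%, all genes 10.3%). The replicate block gave 12 (31.6%, all genes 13.2%), 9 higher and 3 lower, of which 5 were among the 8 found without it, and 0 adjusted. The labels do not say what a number shares. Deviations of same-numbered samples correlated at 0.178, 0.096 and 0.219, and each sample correlated best with its own number, which is a hint from the data and not the design. Count models on recovered reads were not run, because 97.9 to 98.9% of the scaled values were whole multiples of a read, short of recovery for the full table. Depth limits the lowest members: Cyp2c44 rested on 10.6 to 65.8 scaled reads per library, Sult5a1 on 18.9 to 53.0 and Cyp4f18 on 27.8 to 79.3.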

Other observations

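The spread within groups differed widely among the enzymes. The mean within-group coefficient of variation had a median of 16.7% over the 38 expressed members and 14.1% over all genes tested, and was highest for Ugt1a1 (49.6%), Cyp2c44 (47.3%), Cyp4f17 (47.0%), Cyp2s1 (45.3%) and Gstm6 (41.9%). Gstm6 stood at 5.97, 2.34 and 5.24 FPKM in RAS 1 to 3 and at 6.44, 2.60 and 5.46 FPKM in control 1 to 3, low in the library numbered 2 of each group. Cyp4f17 was at 11.2, 7.04 and 17.0 FPKM in RAS 1 to 3 and at 12.6, 23.3 and 8.55 FPKM in control 1 to 3.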
